A study of Homo sapiens with 18 samples.

Results

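The genes described here encode the positive transcription elongation factor P-TEFb and the proteins of the 7SK particle that holds it inactive. They were chosen by name, as HEXIM1, HEXIM2, LARP7, MEPCE, CDK9, CCNT1 and CCNT2, and are 7 of the 58825 genes in the count tables. RNA-sequencing was carried out on OVCAR-3, an established line of high-grade serous ovarian cancer, kept in stripped medium with DMSO (the solvent control), 1 µM i-BET858 or 1 µM i-BET151 for 4 or 24 h. Both compounds inhibit the BET bromodomain proteins. Each of the 6 conditions had 3 replicates, the 18 libraries come from this 1 cell line, and both inhibitors were compared with the same 3 DMSO libraries of their time point.

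P-TEFb is the kinase CDK9 bound to cyclin T1 (CCNT1) or cyclin T2 (CCNT2), and it phosphorylates RNA polymerase II and the factors that hold it paused near the start of genes. A large share of P-TEFb in cells is stored in a particle built on the noncoding 7SK RNA. In that particle MEPCE caps the 5′ end of the RNA, LARP7 binds its 3′ end, and HEXIM1 or its paralogue HEXIM2 inhibits the kinase. The HEXIM1 transcript is widely used as a marker of exposure to BET inhibitors.

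HEXIM1 is a gene of 1 exon on the forward strand of chromosome 17 (chr17:45148475-45152099, GRCh38, GENCODE 44), and HEXIM2 starts 8600 bases after its end on the same strand (chr17:45160700-45170040). LARP7 lies at chr4:112637077-112657696, MEPCE at chr7:100428322-100434126, CDK9 at chr9:127785679-127790792 and CCNT2 at chr2:134918235-134959342, all on the forward strand, and CCNT1 at chr12:48688458-48716998 on the reverse strand. All 7 genes had a RefSeq start with sequence (GRCh38.p14). The RefSeq start nearest to the GENCODE start was used, and it can differ from the positions above. The HEXIM2 window ends at 45160173, short of its gene start, and those of MEPCE, CDK9, CCNT1 and CCNT2 lie inside the gene. The motif counts below depend on these starts. The 250 bases before the HEXIM1 start (chr17:45148225-45148474, forward strand) are shown because this was the gene that changed in every comparison with DMSO. Capitals mark matches on either strand to the TATA box (TATAAA), the GC box (GGGCGG) and the CCAAT box (CCAAT), which do not overlap each other here.
HEXIM1: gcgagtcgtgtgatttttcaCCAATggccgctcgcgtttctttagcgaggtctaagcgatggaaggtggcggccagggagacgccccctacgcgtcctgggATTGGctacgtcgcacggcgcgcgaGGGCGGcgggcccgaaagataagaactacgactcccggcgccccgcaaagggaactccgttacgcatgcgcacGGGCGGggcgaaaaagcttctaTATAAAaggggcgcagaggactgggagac
The TATA box match began 29 bases before the start, the GC box matches 124 and 51 bases and the CCAAT box matches 230 and 149 bases before it. Of the 7 genes HEXIM1 alone had TATAAA in this window, against 10.7% of 35116 RefSeq windows of the same length. Only these exact letters were searched, so the similar TATATAAG in the MEPCE window was not counted. GGGCGG was found in 6 of the 7 genes and in 42.6% of all windows, and CCAAT in 5 of the 7 and in 32% of all. The E-box CACGTG was in 1 of the 7 windows, that of CCNT1, and in 6.34% of all. These matches describe the sequence and were not tested as binding sites.

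Library totals ranged from 27323969 to 46299994 counts, so a gene without a count lay under 3 counts, or 0.0648 to 0.110 CPM (counts relative to the library total), which covers counting error only. Replicate 3 had 17817 to 20642 genes with a count, against 23674 to 24947 in replicates 1 and 2. Levels below are CPM scaled with TMM factors, which set each library against the bulk of its own transcripts, so a change in total mRNA per cell, or in the number of cells, cannot be told apart from none. The ovarian carcinoma markers PAX8, WT1, MUC16, EPCAM, KRT7, KRT8, KRT18 and MSLN were found in all 18 libraries, with MUC16 lowest at 54.2 CPM. PTPRC, PECAM1 and DCN, markers of leukocytes, endothelium and fibroblasts, did not exceed 0.871 CPM, whereas the fibroblast collagen COL1A1 lay between 21.1 and 46.7 CPM. A gene passed a comparison with an adjusted p under 0.05 in edgeR's quasi-likelihood test over all genes tested. This main fit did not pair libraries by replicate number, and calls that changed with the number as a block are given beside it.

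Between genes, levels were compared per kilobase of merged exons. These hold every annotated exon of a gene (8094 bases for LARP7, 9081 for CCNT2), whichever transcripts are expressed. The order between genes therefore depends on the annotation. In DMSO at 4 h HEXIM1 was highest, at 51.4 ± 5.89 CPM per kilobase (SD, n = 3). MEPCE followed with 37 ± 3.07 and CDK9 with 36.9 ± 2.88, a gap smaller than either SD. The level of CCNT1 was 14.4 ± 1.56, of CCNT2 4.72 ± 0.559 and of LARP7 3.45 ± 0.946 CPM per kilobase, where CCNT2 and LARP7 differed by less than the sum of their SDs. HEXIM2 was lowest, with 0.621 ± 0.315. The order was alike in DMSO at 24 h, with HEXIM1 at 52.3 ± 5.94, MEPCE at 36.5 ± 1.62, CDK9 at 36.2 ± 1.25, CCNT1 at 10.5 ± 0.911, CCNT2 at 3.64 ± 0.0404, LARP7 at 3.58 ± 1.89 and HEXIM2 at 0.837 ± 0.0307 CPM per kilobase.

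All 7 genes passed the filter on low counts in each fit. After 4 h of i-BET858, HEXIM1 and MEPCE rose and CCNT2 fell, and the other 4 genes did not pass. Across all genes 30.8% passed this comparison, 14.5% higher and 16.3% lower, so that a count of 3 in 7 set these genes little apart from all others. With i-BET151 at 4 h HEXIM1 and MEPCE rose and no gene of the 7 fell, against 16.2% of all genes passing, 7.81% higher and 8.43% lower. After 24 h of i-BET858 HEXIM1 and CCNT1 rose (41.7% of all genes passed, 20.5% higher and 21.3% lower). At 24 h with i-BET151 HEXIM1 and CCNT1 rose and MEPCE fell, with 33.8% of all genes passing, 17.2% higher and 16.6% lower. The median log2 fold change of the 7 genes was -0.23 and 0.03 at 4 h with i-BET858 and i-BET151, and -0.12 and 0.03 at 24 h, beside medians of 0.02, 0.01, -0.01 and 0.00 over all genes.

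**Figure D1:**
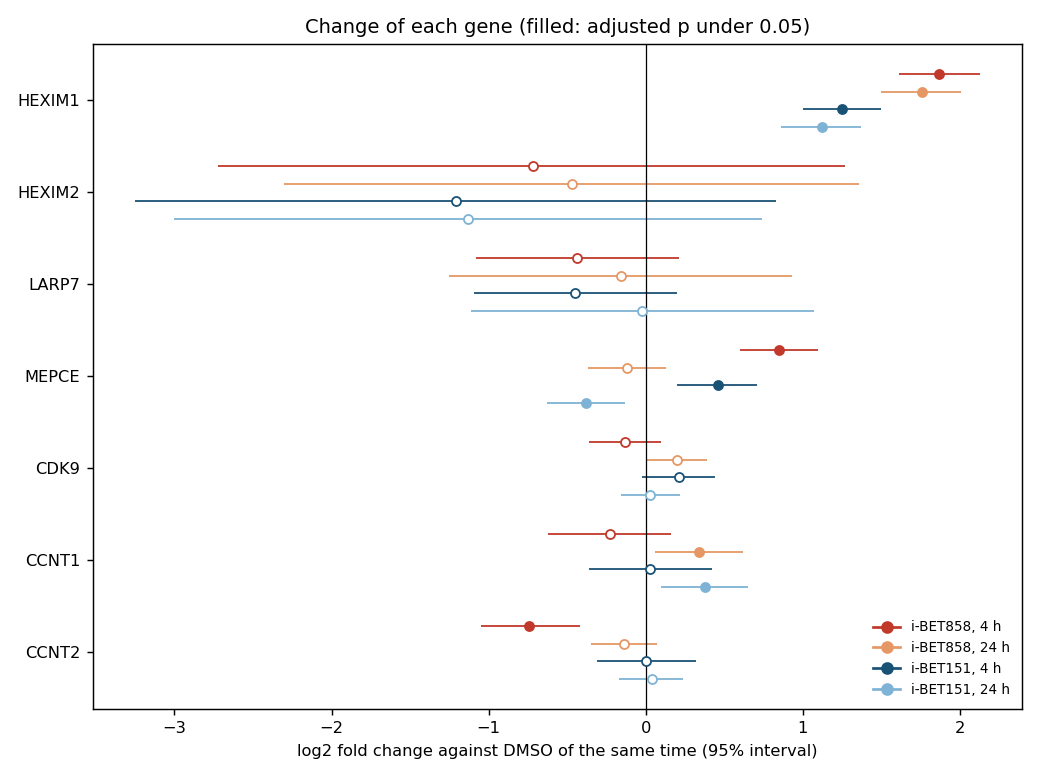
Log2 fold change against DMSO of the same time (horizontal axis, with its 95% interval) of each of the 7 genes, for both inhibitors and both times, where filled points have an adjusted p under 0.05. HEXIM1 lies between 1.12 and 1.87 in the 4 comparisons, MEPCE lies above 0 at 4 h and below it at 24 h, and the intervals of HEXIM2 and LARP7 are wide and include 0.

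HEXIM1, the main inhibitor of P-TEFb, had the largest change of the 7 genes among those that passed in each comparison with DMSO. In DMSO at 4 h its level was 187, 207 and 165 CPM in replicates 1, 2 and 3. It was 701, 725 and 613 CPM with i-BET858 and 475, 439 and 420 CPM with i-BET151. The 3 groups did not overlap at 4 h, with i-BET858 highest and DMSO lowest.

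At 24 h HEXIM1 was at 198, 206 and 165 CPM in DMSO, 678, 708 and 585 CPM with i-BET858, and 438, 445 and 371 CPM with i-BET151. The order of the groups was the one seen at 4 h, again without overlap. In all 6 conditions replicate 3 had the lowest value. Within replicate numbers 1, 2 and 3 the log2 ratio to DMSO was 1.91, 1.80 and 1.90 with i-BET858 at 4 h and 1.78, 1.78 and 1.82 at 24 h. With i-BET151 it was 1.34, 1.08 and 1.35 at 4 h and 1.15, 1.11 and 1.17 at 24 h.

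The log2 fold change of HEXIM1 with i-BET858 was 1.87 ± 0.12 (SE, edgeR adjusted p = 1.46e-06), a 3.65-fold rise, at 4 h and 1.76 ± 0.12 (adjusted p = 1.88e-06), 3.38-fold, at 24 h. With i-BET151 it was 1.25 ± 0.12 (adjusted p = 4.96e-05), 2.38-fold, at 4 h and 1.12 ± 0.12 (adjusted p = 5.33e-05), 2.17-fold, at 24 h. In each comparison the treated library was higher than the DMSO library in 9 of 9 pairs. HEXIM1 was the only 1 of the 7 genes that passed with a change of at least 2-fold. Over all genes 7.08% passed and were at least 2-fold higher with i-BET858 at 4 h, 4.12% with i-BET151 at 4 h, 7.65% with i-BET858 at 24 h and 5.59% with i-BET151 at 24 h. HEXIM1 passed under every other processing tried in these 4 comparisons, with log2 fold changes from 1.05 to 1.94.

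**Figure D2:**
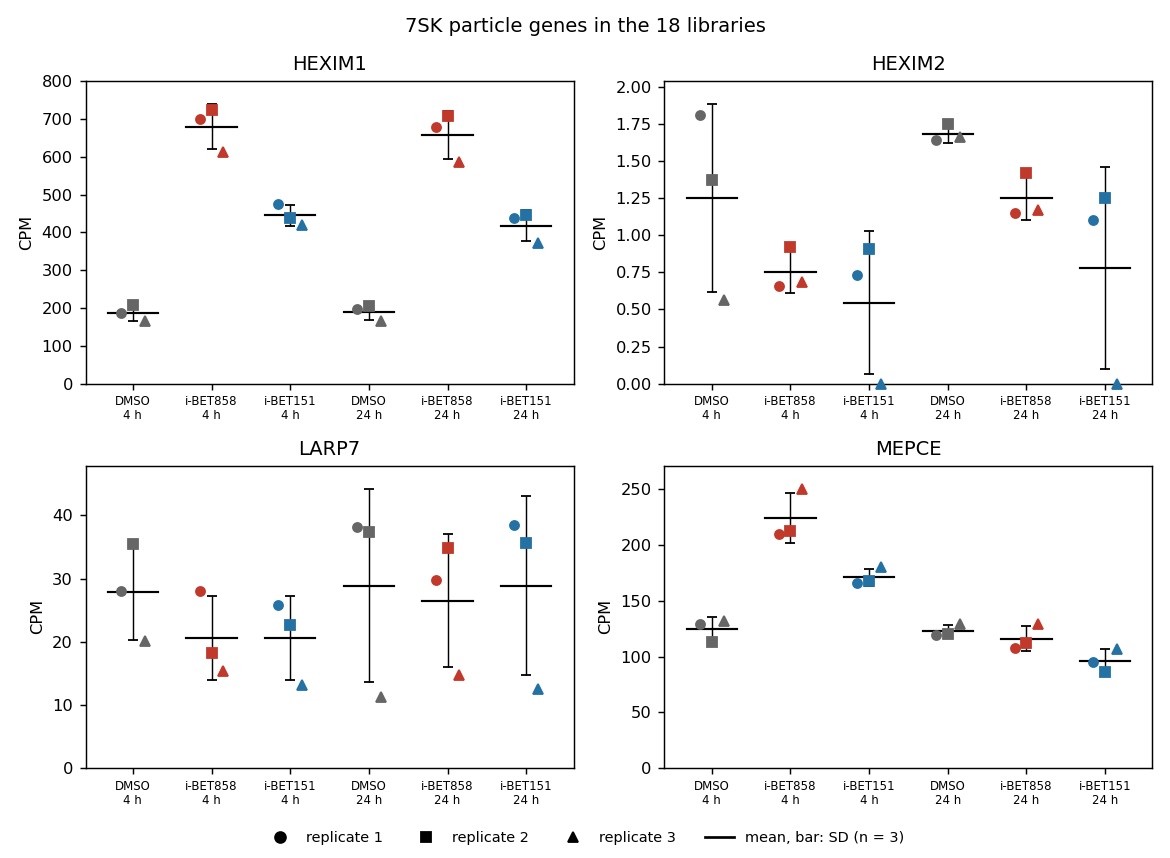
Level of the 4 genes of the 7SK particle in CPM (vertical axes, each from 0) in every library, by treatment and time, where symbols mark the replicate number and lines and bars the mean and SD (n = 3). HEXIM1 shows 3 separate groups at each time, MEPCE is raised by both inhibitors at 4 h only, LARP7 is lowest in replicate 3 of each condition, and HEXIM2 lies at 0 in replicate 3 of i-BET151 at both times.

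MEPCE, the enzyme that caps 7SK RNA, rose early with both inhibitors. At 4 h it was at 129, 113 and 132 CPM in DMSO, at 210, 212 and 250 CPM with i-BET858 and at 166, 168 and 180 CPM with i-BET151. The groups did not overlap, in the order of HEXIM1. With i-BET858 the log2 fold change was 0.85 ± 0.12 (SE, edgeR adjusted p = 0.000224), a 1.8-fold rise with all 9 pairs higher. With i-BET151 it was 0.46 ± 0.11 (adjusted p = 0.0193), 1.37-fold, also with 9 of 9 pairs higher. The i-BET151 value did not pass without replicate 2 of DMSO (0.39, adjusted p = 0.0794) or without replicate 1 or 2 of i-BET151 (0.48 and 0.47, adjusted p = 0.0505 and 0.0554).

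At 24 h the rise of MEPCE was no longer seen. Its level was 119, 120 and 129 CPM in DMSO, 108, 112 and 129 CPM with i-BET858 and 95.2, 86.5 and 107 CPM with i-BET151. The i-BET858 libraries overlapped those of DMSO, and those of i-BET151 lay below all of DMSO. MEPCE fell with i-BET151 by 0.38 on the log2 scale (SE 0.11, edgeR adjusted p = 0.0261, 9 of 9 pairs lower). Its value with i-BET858 was -0.12 ± 0.11 (95% interval -0.37 to 0.13, adjusted p = 0.431). The fall with i-BET151 did not pass without replicate 2 or 3 of DMSO, or replicate 1 or 2 of i-BET151 (-0.40, -0.32, -0.37 and -0.30, adjusted p = 0.0523 to 0.107). Of the merged exon bases of MEPCE, 2067 (61.3%) are shared with a readthrough gene on the same strand (ENSG00000289690). That gene has no row in the count tables, which the authors made with STAR's gene counting. Their annotation release is not given in the sources used here.

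LARP7, which binds the 3′ end of 7SK RNA, passed in none of the 4 comparisons in the unpaired main fit. At 4 h its level was 28.1, 35.4 and 20.1 CPM in DMSO, 28, 18.3 and 15.4 CPM with i-BET858 and 25.8, 22.7 and 13.2 CPM with i-BET151. At 24 h it was 38.2, 37.3 and 11.3 CPM in DMSO, 29.8, 34.9 and 14.8 CPM with i-BET858 and 38.5, 35.6 and 12.6 CPM with i-BET151. Replicate 3 was lowest in all 6 conditions, and at 24 h the 3 groups overlapped. Replicate 3 was also the one with fewer genes detected, whose part in these values was not tested.

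The log2 fold change of LARP7 at 4 h was -0.44 ± 0.29 with i-BET858 (edgeR adjusted p = 0.297, 8 of 9 pairs lower) and -0.45 ± 0.29 with i-BET151 (adjusted p = 0.355, lower in 7 of 9). With the replicate number as a block both passed, at -0.44 (adjusted p = 0.0298) and -0.47 (adjusted p = 0.0306), beside 45.4% and 32.7% of all genes in that fit. At 24 h the values were -0.16 ± 0.49 (95% interval -1.25 to 0.93) with i-BET858 and -0.02 ± 0.49 (-1.11 to 1.07) with i-BET151. Without every replicate 3 library LARP7 was lower with i-BET858 at 24 h, with -0.25 (adjusted p = 0.0353, 60.7% of all genes passing).

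HEXIM2, the paralogue of HEXIM1, was near the limit of detection, with 634 counts over all 18 libraries against 262735 for HEXIM1. At 4 h its level was 1.81, 1.37 and 0.564 CPM in DMSO, 0.657, 0.919 and 0.682 CPM with i-BET858 and 0.729, 0.909 and 0 CPM with i-BET151. At 24 h it was 1.64, 1.75 and 1.66 CPM in DMSO, 1.15, 1.42 and 1.17 CPM with i-BET858, and 1.10, 1.25 and 0 CPM with i-BET151. All treated libraries lay below all DMSO libraries at 24 h, but not at 4 h, where replicate 3 of DMSO was low. Replicate 3 of i-BET151 had 0 counts at both times, which allows up to 0.0803 CPM at 4 h and 0.0882 CPM at 24 h.

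The log2 fold change of HEXIM2 was -0.72 ± 0.91 and -1.21 ± 0.93 with i-BET858 and i-BET151 at 4 h, and -0.47 ± 0.83 and -1.13 ± 0.85 at 24 h (edgeR adjusted p = 0.6, 0.434, 0.69 and 0.344). A fall or a rise by 2-fold lies inside the 95% interval of HEXIM2 with i-BET858 at 4 h (-2.72 to 1.27). Without replicate 3 of i-BET151, the library with 0 counts, the i-BET151 value was -0.61 (adjusted p = 0.497) at 4 h and -0.55 (adjusted p = 0.222) at 24 h, and with any 1 library left out it ran from -1.80 to -0.61 and from -1.61 to -0.55. Without every replicate 3 library the edgeR adjusted p of the 4 comparisons was 0.0542, 0.0867, 0.161 and 0.0846, and HEXIM2 passed in none. Of its merged exon bases 1026 (51.1%) are shared with the antisense gene ENSG00000267288, which had 307 counts, and the strand setting of the counting is not given in the sources used here. Per library the counts of HEXIM1 exceeded those of HEXIM2 by a mean log2 ratio of 7.38 ± 0.76 (SD, n = 3) in DMSO at 4 h, 9.83 ± 0.22 with i-BET858 and 9.13 ± 0.31 with i-BET151. At 24 h this ratio was 6.81 ± 0.15, 9.04 ± 0.14 and 8.56 ± 0.11, where the i-BET151 values at both times rest on the 2 libraries with HEXIM2 counts.

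CDK9, the kinase of P-TEFb, stayed within a narrow range. At 4 h it was at 119, 102 and 112 CPM in DMSO, 97.8, 101 and 104 CPM with i-BET858 and 124, 128 and 133 CPM with i-BET151. At 24 h it was at 106, 108 and 113 CPM in DMSO, 128, 131 and 126 CPM with i-BET858 and 113, 108 and 117 CPM with i-BET151. The i-BET151 libraries lay above all of DMSO at 4 h, and those of i-BET858 at 24 h.

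With i-BET858 the log2 fold change of CDK9 was -0.13 ± 0.11 (SE, edgeR adjusted p = 0.397) at 4 h and 0.20 ± 0.09 (adjusted p = 0.0947, higher in 9 of 9 pairs) at 24 h. The 24 h value passed with the replicate block (0.20, adjusted p = 0.0474), with DESeq2 (0.19, adjusted p = 0.0491), without replicate 3 of DMSO (0.26, adjusted p = 0.0395) and without every replicate 3 library (0.25, adjusted p = 0.00755). With i-BET151 it was 0.21 ± 0.11 (adjusted p = 0.218) at 4 h and 0.03 ± 0.09 (adjusted p = 0.837) at 24 h. The 95% intervals of these 4 values reached from -0.36 to 0.44, so that a 2-fold change of CDK9 lay outside each of them. Scaled to the total library size, where the median of all genes with i-BET858 at 4 h moved from 0.02 to -0.14, CDK9 was at -0.29 in that comparison and passed (adjusted p = 0.0423).

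**Figure D3:**
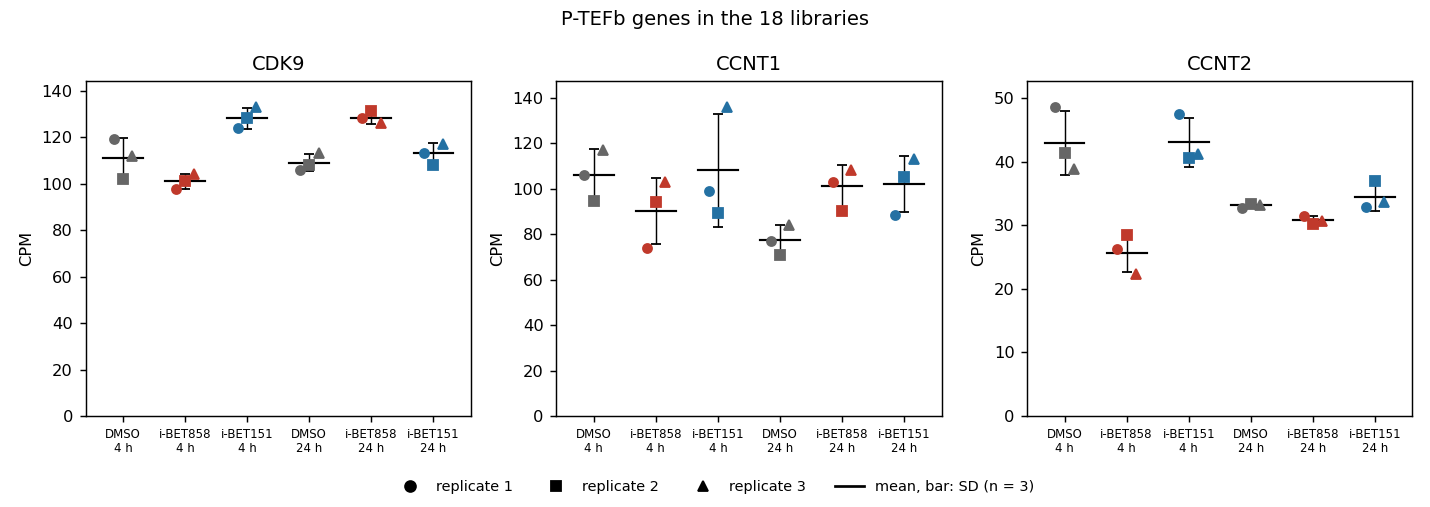
Level of the 3 genes of P-TEFb in CPM (vertical axes, each from 0) in every library, drawn as for the 7SK particle genes. CCNT2 is lowest with i-BET858 at 4 h, between 22.4 and 28.4 CPM, and CCNT1 is lowest in DMSO at 24 h, between 70.7 and 84.1 CPM.

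CCNT2, the less abundant of the cyclins, fell with i-BET858 at 4 h. It was at 48.6, 41.3 and 38.8 CPM in DMSO, 26.3, 28.4 and 22.4 CPM with i-BET858 and 47.4, 40.5 and 41.2 CPM with i-BET151. All i-BET858 libraries lay below the other 6, and i-BET151 and DMSO overlapped. CCNT2 fell by 0.74 on the log2 scale with i-BET858 (SE 0.14, edgeR adjusted p = 0.00256, lower in 9 of 9 pairs), a level 0.6 times that of DMSO, and it passed under every other processing tried (-0.89 to -0.64) except the added minimum of 2-fold. With i-BET151 the value was 0.00 ± 0.14 (95% interval -0.31 to 0.32, adjusted p = 0.999).

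At 24 h CCNT2 was at 32.7, 33.4 and 33.2 CPM in DMSO, 31.4, 30.2 and 30.7 CPM with i-BET858 and 32.9, 36.9 and 33.6 CPM with i-BET151. The i-BET858 libraries were still below those of DMSO, but by little, with a log2 fold change of -0.14 ± 0.09 (edgeR adjusted p = 0.256). For i-BET151 it was 0.04 ± 0.09 (adjusted p = 0.812).

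CCNT1, the main cyclin partner of CDK9, passed at 24 h only. At 4 h it was at 106, 94.4 and 117 CPM in DMSO, 74, 94 and 103 CPM with i-BET858 and 98.8, 89.3 and 136 CPM with i-BET151, and the groups overlapped. The log2 fold changes at 4 h were -0.23 ± 0.18 after i-BET858 (edgeR adjusted p = 0.375) and 0.03 ± 0.18 after i-BET151 (adjusted p = 0.944). At 24 h it was at 77.1, 70.7 and 84.1 CPM in DMSO, 103, 90.1 and 108 CPM with i-BET858 and 88.4, 105 and 113 CPM with i-BET151. Both treated groups lay above DMSO at 24 h and overlapped each other.

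CCNT1 rose at 24 h, close to the threshold and in 9 of 9 pairs with each inhibitor. The log2 fold change was 0.34 ± 0.12 after i-BET858 (SE, edgeR adjusted p = 0.0484) and 0.38 ± 0.12 after i-BET151 (adjusted p = 0.0379). The i-BET858 value did not pass with total library size (0.25, adjusted p = 0.0926) or DESeq2's size factors (adjusted p = 0.0559), nor without replicate 1 or 2 of DMSO or replicate 1 or 3 of i-BET858 (0.33, 0.27, 0.32 and 0.30, adjusted p = 0.111 to 0.172). The i-BET151 value did not pass with DESeq2's size factors (adjusted p = 0.053), nor without replicate 1 or 2 of DMSO or replicate 2 or 3 of i-BET151 (0.37, 0.31, 0.36 and 0.29, adjusted p = 0.094 to 0.142). The DMSO level of CCNT1 itself was lower at 24 h than at 4 h in 9 of 9 pairs, with a log2 fold change of -0.45 ± 0.16 (adjusted p = 0.324).

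The balance between members was described per library as log2 ratios of counts, with no test. The ratio of HEXIM1 to CDK9 was 0.75 ± 0.25 (SD, n = 3) in DMSO at 4 h, 2.75 ± 0.17 after i-BET858 and 1.79 ± 0.14 after i-BET151. At 24 h it was 0.79 ± 0.21, 2.35 ± 0.12 and 1.89 ± 0.20. As geometric means, HEXIM1 had 1.68 counts for each count of CDK9 in DMSO at 4 h and 6.71 with i-BET858. The ratio of CCNT1 to CCNT2 was 1.30 ± 0.25 in DMSO, 1.81 ± 0.36 after i-BET858 and 1.31 ± 0.36 after i-BET151 at 4 h, and 1.22 ± 0.13, 1.71 ± 0.12 and 1.56 ± 0.16 at 24 h, where both treated groups lay above DMSO. At 4 h the libraries overlapped, while within replicate numbers 1, 2 and 3 the ratio was higher with i-BET858 than in DMSO each time (1.49, 1.73 and 2.19 against 1.13, 1.19 and 1.60).

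Whether i-BET858 and i-BET151 differed was tested directly at 1 µM, the dose used for both, in 7 genes at each of the 2 times. At 4 h HEXIM1 was higher with i-BET858 than with i-BET151, with a log2 difference of 0.62 ± 0.11 (SE, edgeR adjusted p = 0.033, higher in 9 of 9 pairs), and CCNT2 lower, with -0.74 ± 0.15 (adjusted p = 0.0404, lower in 9 of 9). These were 2 of 7 genes, against 0.971% of all genes. Without any 1 of the 6 libraries neither passed, with differences of 0.57 to 0.69 for HEXIM1 (adjusted p = 0.0512 to 0.159) and of -0.82 to -0.65 for CCNT2 (adjusted p = 0.0765 to 0.18). HEXIM1 also did not pass with total library size (0.52, adjusted p = 0.0705), where CDK9 did (-0.44, adjusted p = 0.047). With the replicate block 4 of 7 passed, against 9.63% of all genes, which added MEPCE (0.39, adjusted p = 0.0069) and CDK9 (-0.34, adjusted p = 0.0234).

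Without the block, MEPCE differed at 4 h by 0.39 ± 0.11 (edgeR adjusted p = 0.148, higher in 9 of 9 pairs) and CDK9 by -0.34 ± 0.11 (adjusted p = 0.181, lower in 9 of 9). CCNT1 differed by -0.25 (95% interval -0.65 to 0.14), LARP7 by 0.01 (-0.64 to 0.65) and HEXIM2 by 0.49 (-1.56 to 2.54). At 24 h edgeR without the block passed 0 of 7 genes, against 0.210% of all genes. HEXIM1 differed by 0.64 ± 0.11 (adjusted p = 0.0649, higher in 9 of 9 pairs), about as much as at 4 h. It was 1 of 2 genes with an unadjusted p under 0.05, beside MEPCE (0.26, 95% interval 0.00 to 0.51), and passed with the replicate block (0.64, adjusted p = 0.000865, 4.37% of all genes) and with DESeq2 (0.65, adjusted p = 1.81e-05), as well as with no filter (0.66, adjusted p = 9.2e-05), in each as the 1 gene of 7. Without every replicate 3 library HEXIM1 (0.66, adjusted p = 0.000349) and MEPCE (0.28, adjusted p = 0.0391) passed, against 7.29% of all genes. For CDK9, CCNT1 and CCNT2 the intervals at 24 h were -0.02 to 0.36, -0.31 to 0.24 and -0.39 to 0.03.

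**Figure D4:**
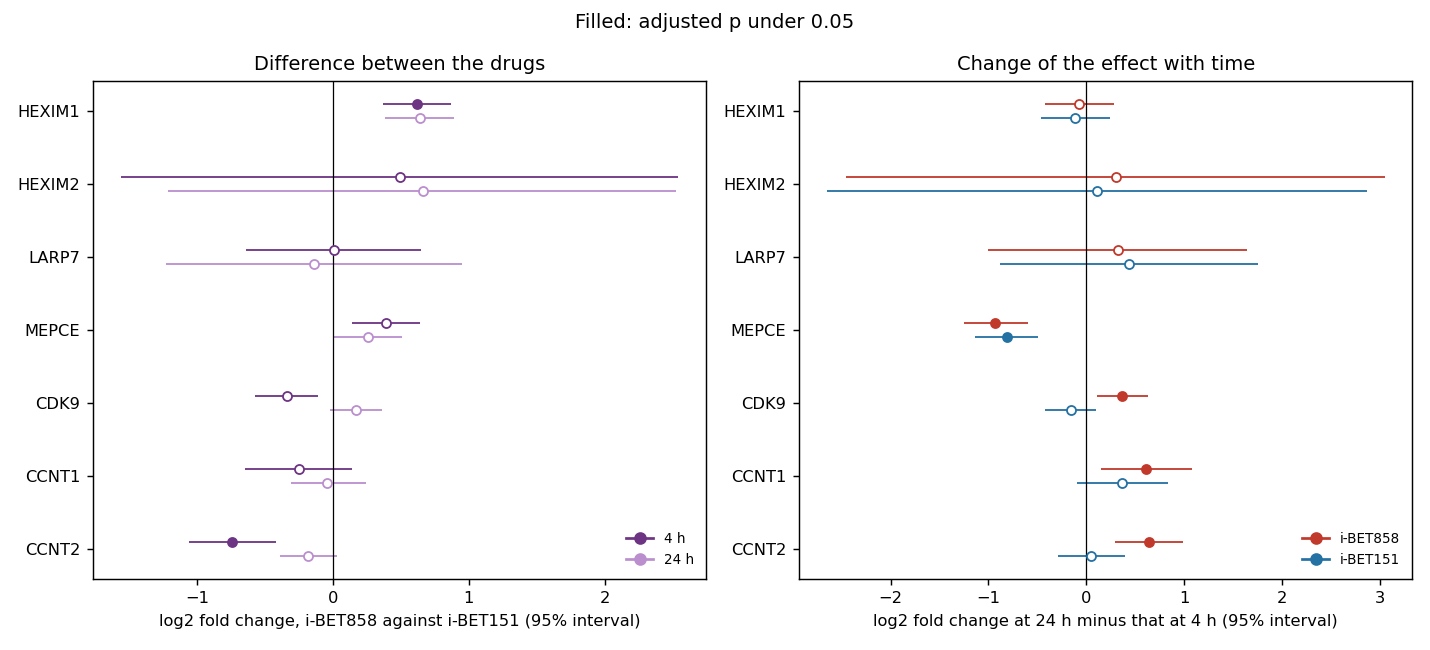
Left, the log2 fold change of i-BET858 against i-BET151 at 4 and 24 h, and right, the change of each inhibitor's effect from 4 to 24 h, for the 7 genes (points with 95% intervals, filled where the adjusted p is under 0.05). HEXIM1 and CCNT2 pass on the left at 4 h, and on the right MEPCE lies below 0 for both inhibitors while CDK9, CCNT1 and CCNT2 lie above 0 for i-BET858.

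The change of an effect from 4 to 24 h was tested in a fit of all 18 libraries. For i-BET858, 4 of 7 genes passed, against 27.2% of all genes. The effect on MEPCE went down by 0.93 on the log2 scale (-0.93 ± 0.15, edgeR adjusted p = 0.000251), and that on CCNT2 went up by 0.64 ± 0.17 (adjusted p = 0.00818). Both passed under every other processing tried except the added minimum of 2-fold. CDK9 and CCNT1 also passed, with 0.37 ± 0.12 (adjusted p = 0.0316) and 0.61 ± 0.22 (adjusted p = 0.0484). In DMSO itself CCNT1 and CCNT2 were lower at 24 h than at 4 h in 9 of 9 pairs, by log2 values of -0.45 ± 0.16 and -0.38 ± 0.12 that did not pass (adjusted p = 0.324 and 0.259), and these DMSO libraries enter both changes of effect.

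The call for CDK9 was lost with DESeq2's size factors (0.32, adjusted p = 0.0795) and with no filter (0.40, adjusted p = 0.226), and without any 1 of 9 of the 12 libraries (0.32 to 0.37, adjusted p = 0.0515 to 0.0829), but not without replicate 2 of DMSO at 4 h or replicate 3 of either group at 24 h. For CCNT1 it was lost with DESeq2 (adjusted p = 0.069), with its size factors (adjusted p = 0.0816) and without any 1 of 8 of the 12 libraries (0.48 to 0.64, adjusted p = 0.057 to 0.135). For i-BET151, MEPCE alone passed, with -0.81 ± 0.15 (adjusted p = 0.00214), against 13.8% of all genes. The effect on HEXIM1 changed by -0.07 (95% interval -0.42 to 0.28) with i-BET858 and by -0.11 (-0.46 to 0.24) with i-BET151. Between 4 and 24 h of DMSO alone edgeR and DESeq2 passed 0 of 7 genes, with 2 at an unadjusted p under 0.05 (CCNT1 and CCNT2), against 0.0386% of all genes. With the replicate block CCNT1 passed (-0.45, adjusted p = 0.0358), against 2.07% of all genes.

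Genes around HEXIM1 were examined because HEXIM2 lies next to it. Of genes with any part within 100 kb of HEXIM1, 9 other than the HEXIM genes were tested in all 4 comparisons, and 0 of them passed in all 4. At 4 h with i-BET858, 1 passed higher (PLCD3, a phospholipase, 0.45 ± 0.13, edgeR adjusted p = 0.0227) and 1 lower (NMT1, an N-myristoyltransferase, -0.90 ± 0.11, adjusted p = 9.45e-05). With i-BET151 at 4 h 0 passed. Over all genes 30.8% passed with i-BET858 at 4 h and 16.2% with i-BET151. At 24 h FMNL1 was lower with i-BET858 (-1.26 ± 0.26, adjusted p = 0.0024) and i-BET151 (-1.16 ± 0.25, adjusted p = 0.00531), DCAKD higher with i-BET858 (0.62 ± 0.21, adjusted p = 0.0333) and NMT1 higher with i-BET151 (0.27 ± 0.09, adjusted p = 0.0364). These 4 neighbours are named after their values were seen. The noncoding gene ENSG00000276728, on the opposite strand just before the HEXIM1 start and without overlap, had -1.42 ± 0.67 with i-BET858 at 4 h (adjusted p = 0.139).

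**Figure D5:**
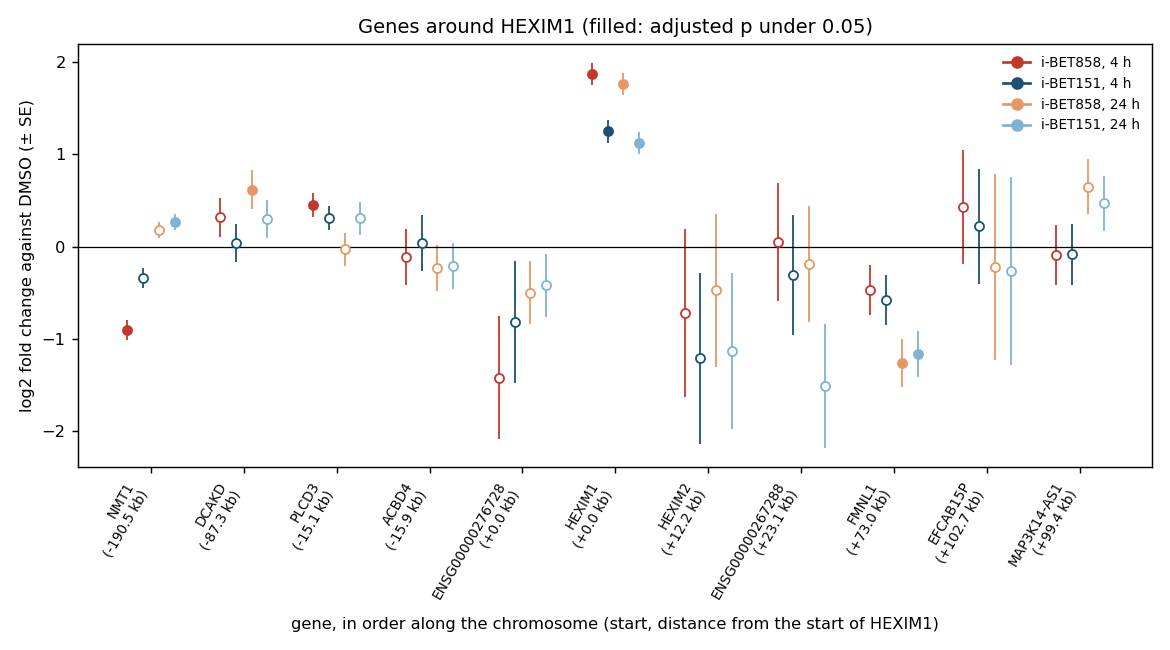
Log2 fold change against DMSO (vertical axis, ± SE) of the genes tested with any part within 100 kb of HEXIM1, in their order along the chromosome, with the distance of each start from that of HEXIM1 in kb, for both inhibitors and times (filled, adjusted p under 0.05). HEXIM1 is the 1 gene filled in all 4 comparisons, and HEXIM2, whose start lies 12.2 kb away, is below 0 with open points.

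The pattern of HEXIM1 was compared with that of 12327 other genes whose log2 CPM averaged 1 or more, by the root mean square difference of the 4 log2 fold changes, which share their DMSO libraries in pairs. The 5 nearest genes were TRNP1 (0.06), PNRC1 (0.08), EPHX1 (0.08), PCDH19 (0.11) and NATD1 (0.12), none of them a neighbour of HEXIM1. TRNP1, the nearest, had log2 fold changes of 1.84 ± 0.17, 1.28 ± 0.17, 1.70 ± 0.17 and 1.22 ± 0.17 with i-BET858 and i-BET151 at 4 h and at 24 h.

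P-TEFb works with a wider set of factors, and 36 genes were listed as partners: 7SK RNA, carriers of that RNA, factors that recruit or release P-TEFb, the super elongation complex, pausing factors, and other kinases of the polymerase tail with the polymerase. RN7SK, the 7SK RNA itself, had 0 counts in each library. These libraries were made from poly-A RNA, and 7SK RNA has no poly-A tail, but why RN7SK had no counts was not tested. ELL3 and the pausing factor SUPT4H1 were also not tested, which leaves 33. SUPT4H1 had a mean of 0.0102 CPM in DMSO at 4 h and 0 CPM in each other condition. Whether the unknown annotation release or strand setting bears on this was not tested. With i-BET858 at 4 h 6 of 33 were higher (18.2%) and 6 lower (18.2%), with a median log2 fold change of -0.06, and with i-BET151 5 (15.2%) and 3 (9.09%), with a median of -0.03. At 24 h 12 of 33 (36.4%) were higher with each inhibitor, and 3 (9.09%) and 2 (6.06%) lower with i-BET858 and i-BET151, with medians of 0.21 and 0.12. The shares of all genes are those given for the 7 genes. With the replicate block 23 and 17 of the partners passed at 4 h with i-BET858 and i-BET151 (45.4% and 32.7% of all genes), and 22 and 17 at 24 h (52% and 45.9% of all genes). Without replicate 2 of DMSO 9 rather than 14 passed at 24 h with i-BET151 (24.7% of all genes).

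Within the super elongation complex, a partner of active P-TEFb, 3 of 8 tested genes were higher and 2 lower with i-BET858 at 4 h, 2 higher with i-BET151 at 4 h, and 5 higher at 24 h with each. These counts include EAF2, named after its values were seen, whose call passed under 5 of 12 alternatives with i-BET858 at 4 h (0.98, edgeR adjusted p = 0.0373) and under 8 of 12 with i-BET151 at 24 h (0.75, adjusted p = 0.0203). ELL2, an elongation factor of that complex, had the largest change of the partners in each of the 4 comparisons. At 4 h it was at 21 ± 0.652 CPM (SD, n = 3) in DMSO, 85.9 ± 11.2 CPM with i-BET858 and 60.1 ± 6.67 CPM with i-BET151. At 24 h it was at 12.6 ± 0.656, 50.2 ± 5.38 and 38.6 ± 3.75 CPM. The log2 fold changes of ELL2 were 2.04 ± 0.14 and 1.51 ± 0.14 at 4 h and 1.95 ± 0.13 and 1.59 ± 0.13 at 24 h (edgeR adjusted p = 4.64e-05 at most). AFF1, a scaffold of the complex, rose by 0.98 ± 0.15 and 0.73 ± 0.15 at 4 h and by 1.16 ± 0.16 and 1.21 ± 0.16 at 24 h. Its paralogue AFF4 passed at 24 h, with 1.13 ± 0.15 and 1.02 ± 0.15, and was at 0.52 ± 0.21 (adjusted p = 0.0884) and 0.43 ± 0.21 (adjusted p = 0.2) at 4 h, where it passed under 5 and 2 of 12 alternatives.

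Among the factors that recruit or release P-TEFb, 2 of 9 were higher and 1 lower with each inhibitor at 4 h, and 4 higher and 1 lower at 24 h. BRD2, a BET protein, was at 184 ± 6.55 CPM in the DMSO libraries of 4 h, at 462 ± 34.5 CPM after i-BET858 and at 311 ± 28.9 CPM after i-BET151. It rose by log2 fold changes of 1.33 ± 0.11 and 0.76 ± 0.11 (SE, edgeR adjusted p = 6.92e-06 and 0.000694). It was 0.58 ± 0.11 higher with i-BET858 than with i-BET151 (adjusted p = 0.032). Of the carriers of 7SK RNA, 1 of 4 was lower at 4 h with each inhibitor. This was SYNCRIP, named after its values were seen, with -0.54 ± 0.10 after i-BET858 (adjusted p = 0.00137) and -0.33 ± 0.10 after i-BET151 (adjusted p = 0.0383), where the latter passed under 5 of 12 alternatives (adjusted p = 0.00426 to 0.14). HNRNPR, at -0.25 and -0.32 at 4 h with i-BET858 and i-BET151, did not pass there but did so under 3 and 1 of 12 alternatives. At 24 h 0 of the 4 passed in edgeR, with HNRNPA1 and HNRNPA2B1 passing under 3 and HNRNPR under 2 of 12 alternatives for i-BET858, and HNRNPR under 1 for i-BET151.

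Of the pausing factors, 1 of 5 fell at 4 h with each inhibitor, against 16.3% of all genes with i-BET858 and 8.43% with i-BET151. This was NELFA, a subunit of the negative elongation factor, at 50.5 ± 3.59 CPM in DMSO, 13.8 ± 1.21 after i-BET858 and 29 ± 5.94 after i-BET151. Its log2 fold changes were -1.87 ± 0.17 and -0.80 ± 0.16 (edgeR adjusted p = 1.39e-05 and 0.00644), and it was lower with i-BET858 than with i-BET151 by 1.07 (-1.07 ± 0.16, adjusted p = 0.0237). At 24 h the log2 fold change of NELFA was -0.44 ± 0.12 after i-BET858 (adjusted p = 0.0148, passing under 11 of 12 alternatives) and -0.22 ± 0.12 after i-BET151 (adjusted p = 0.202). Over all genes at 24 h, 21.3% were lower and 20.5% higher with i-BET858, and 16.6% lower and 17.2% higher with i-BET151. Of the 5 pausing factors tested, 2 were lower and 1 higher with i-BET858 at 24 h, and 1 lower and 1 higher with i-BET151. Beside NELFA these were NELFCD, another subunit of the negative elongation factor, and SUPT5H, a subunit of the pausing factor DSIF, both named after their values were seen. NELFCD was lower by log2 fold changes of -0.79 ± 0.09 and -0.56 ± 0.09 (adjusted p = 4.43e-05 and 0.000589). SUPT5H was higher by 0.52 ± 0.08 and 0.30 ± 0.08 (adjusted p = 0.000553 and 0.0183), where the i-BET151 value passed under 9 of 12 alternatives. POLR2A, the largest subunit of RNA polymerase II and the substrate of CDK9, rose by 1.77 ± 0.24 and 1.15 ± 0.24 at 4 h and by 1.42 ± 0.14 and 1.02 ± 0.14 at 24 h with i-BET858 and i-BET151. Of the 7 genes of its class, the other kinases of the polymerase tail with the polymerase, 1 was higher and 1 lower with i-BET858 at 4 h. With i-BET151 at 4 h 1 was higher and 0 lower, and at 24 h 2 were higher and 0 lower with each inhibitor. BRD2 and NELFA were the 2 of 33 partners that passed between the inhibitors at 4 h, against 0.971% of all genes. At 24 h 0 of the partners passed in edgeR, against 0.210% of all genes. For partners no alternative was run between the inhibitors.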

How the data were processed

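RNA of 18 OVCAR-3 libraries was poly-A enriched, sequenced as paired reads, aligned to GRCh38 with STAR and counted per gene by the authors. The deposited values are raw, unnormalized counts, in 1 table for each time point. Annotation release and strand setting are not given in the sources used here, so which reads of overlapping genes were counted cannot be told. Symbols and positions came from GENCODE 44, which held 58472 of 58825 identifiers (99.4%). The members and lists were chosen with earlier results of these data known. The libraries of a time point entered 1 fit in edgeR 4.0.16 (R 4.3.3; TMM factors of 0.893 to 1.09, filterByExpr, quasi-likelihood test, Benjamini-Hochberg over all genes tested), and all 18 libraries together for changes with time. Levels are CPM with TMM factors of the 18-library fit. Deviations of libraries with the same replicate number correlated at 0.141 to 0.365 at 4 h and 0.161 to 0.352 at 24 h, all over 0.1. Those with different numbers correlated at -0.341 to 0.233 at 4 h and -0.329 to 0.326 at 24 h, which overlaps these ranges. The number was taken to pair the libraries, yet the main fits left this pairing out. It enters only as an alternative, the replicate block, so each main call is that of an unpaired fit. Alternatives were this replicate block, DESeq2 1.42.0 (named in the study's methods), its size factors, total library size, no filter, a fold of at least 2, and libraries left out. The tests were tested on simulated data. Partners named were the 4 with the largest change among those passing in each comparison with DMSO, RN7SK and 1 further gene that is not reported here, and the carriers of 7SK RNA, EAF2, NELFCD and SUPT5H were added after their values were seen. Neighbours were to be named if passing in all 4 comparisons, and the 5 genes nearest to a member passing in all 4 were named.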

Additional observations from a re-analysis of the deposited data

Results flagged for a closer look

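In 5 cases the effect of an inhibitor on a gene differed between 4 and 24 h by a test of the difference itself, the drug-by-time term in a fit of all 18 libraries. MEPCE moved down between the time points with both inhibitors, by -0.93 (log2, i-BET858) and -0.81 (i-BET151). With i-BET858 the effect moved up by 0.37 for CDK9, by 0.61 for CCNT1 and by 0.64 for CCNT2. The values for CDK9 and CCNT1 did not pass under all alternatives, as given beside them.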

How the results depend on the processing

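HEXIM1 and the fall of CCNT2 with i-BET858 at 4 h passed under every alternative in the comparisons with DMSO, except that CCNT2 did not reach a change of 2-fold. Over 605 recomputed values of 48 tested results, 501 kept direction and side of the threshold, 52 lost the call, 19 gained it and 33 changed sign, none of the latter in a call. With a change of at least 2-fold as well, 1 gene passed in each comparison with DMSO and 0 in the comparisons of the inhibitors and in both changes with time. After 24 h of i-BET858 1 gene passed with DESeq2's size factors and 1 with total library size (41.1% of all genes with the latter). For the change of the i-BET858 effect 2 passed with DESeq2's size factors. DESeq2 gave 4 genes between the inhibitors at 4 h and 1 at 24 h, and no filter gave 1 at 24 h. For DESeq2, its size factors and no filter the share of all genes is not given. Counts under these do not set the 7 genes apart from all others. The replicate block gave 4 genes between the inhibitors at 4 h, 1 at 24 h and 1 in DMSO over time (9.63%, 4.37% and 2.07% of all genes). Among the 7 genes it changed no call other than those given in the text.

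With libraries left out, the number passing ran from 1 to 2 with i-BET151 at 4 h, from 1 to 4 with i-BET858 at 24 h, from 1 to 3 with i-BET151 at 24 h, from 0 to 2 between the inhibitors at either time and from 2 to 4 for the change of the i-BET858 effect. The share of all genes moved too. Without every replicate 3 library, where 4 passed with i-BET858 at 24 h, it was 60.7%, against 41.7% in the main fit. With i-BET151 it was 25.9% at 4 h and 54.2% at 24 h in that setting, against 16.2% and 33.8%. Between the inhibitors it was 2.29% and 7.29%, and for the change of the i-BET858 effect 40.6%. The values that changed sign were these. With total library size CCNT1 and CCNT2 with i-BET151 at 4 h were at -0.04 and -0.06, LARP7 between the inhibitors at 4 h at -0.10 and CDK9 with i-BET151 at 24 h at -0.0019. With no filter CCNT2 with i-BET151 at 4 h was at -0.0049 and LARP7 between the inhibitors at 4 h at -0.01, and with the replicate block LARP7 with i-BET151 at 24 h was at 0.0046. With libraries left out, CCNT1 ran from -0.18 to 0.15 (i-BET151, 4 h) and from -0.12 to 0.06 (between the inhibitors, 24 h), CCNT2 from -0.07 to 0.10 (i-BET151, 4 h) and from -0.01 to 0.07 (24 h), CDK9 from -0.01 to 0.08 (i-BET151, 24 h) and HEXIM2 from -0.11 to 1.08 (between the inhibitors, 4 h). LARP7 ran from -0.52 to 0.15 (i-BET858, 24 h), from -0.39 to 0.33 (i-BET151, 24 h), and from -0.28 to 0.20 and -0.48 to 0.15 (between the inhibitors, 4 and 24 h). The cause was not tested. Partners passing ranged from 6 to 25 over the comparisons with DMSO when libraries were left out, in fits whose shares of all genes also differed. HEXIM2, with the lowest counts of the 7 genes, did not pass under any alternative run for the comparisons with DMSO and between the inhibitors.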
